A study of Mus musculus with 6 samples.

Results

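The 10 interferon-induced GTPases described here are 8 guanylate-binding proteins, Gbp2 to Gbp9, and 2 immunity-related GTPases, Igtp and Irgm1. They were taken by name from the 28773 genes listed in each sample. All 10 were found, and all were among the 12444 genes with a mean of at least 1 FPKM over the 6 samples, the genes tested. FPKM counts fragments scaled by transcript length and by the mapped total, so it compares levels between genes per length.

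The RNA came from CD8+ T cells that had been isolated from mouse spleens with a CD8+ T cell isolation kit at day 35. In the MWA+PBS group (n = 3, samples 1 to 3) the tumour had been treated by microwave ablation (MWA) and the mice then received phosphate-buffered saline. In the MWA+2DG group (n = 3, samples 4 to 6) the same ablation was followed by repeated intraperitoneal 2-deoxy-D-glucose (2DG), a glucose analogue used to inhibit glycolysis. Both groups carried a tumour and were ablated, so the comparison asks what 2DG added after ablation, and no unablated or untreated cells enter it. The study's methods describe its mice as female and its treated wild-type mice as a few weeks old, and the labels do not say which of the study's strains and tumour lines gave these samples. The labels do not say whether each sample was 1 mouse or a pool, so the p-values measure the spread between these samples, which may be technical.

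Guanylate-binding proteins (GBPs) are large GTPases of the dynamin superfamily, and immunity-related GTPases (IRGs) are smaller relatives. Interferon gamma induces both families strongly, in part through IRF1, and type I interferon induces many of the same genes through a complex that holds IRF9. The proteins assemble on vacuoles that hold parasites or bacteria and on bacterial surfaces, where they disrupt the membrane and expose microbial products to inflammasomes. Among the IRGs, Irgm1 and Igtp (also called Irgm3) belong to the regulatory IRGM group, which sits on the cell's own membranes and keeps the effector IRGs inactive there. In T cells the same genes serve as a common readout of interferon exposure.

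The promoters are shown first because the genes are induced through short elements close to their starts. The search covered windows of 300 bases, from 250 before to 50 after the annotated start, in RefSeq models of build GRCm38.p6. Windows were in the table for 6 of the 10 genes. There were none for Gbp4, Gbp6, Gbp8 and Gbp9, the members on chromosome 5, so their promoters were not searched. The core of the interferon-stimulated response element, read as the letters GAAA, any 2 bases and GAAA again on either strand, was in a window of all 6, and occurred in 3.99% of the 27025 genes in the table. The gamma-activated site of interferon gamma signalling, TTCNNNGAA, was in the windows of Gbp5, Gbp7 and Igtp, and occurred in 9.55% of genes. Capitals mark matches to these letters, and the stretches run 5′ to 3′ on the gene's strand and stop before the start.
Gbp2, chr3:142620579-142620638, plus strand: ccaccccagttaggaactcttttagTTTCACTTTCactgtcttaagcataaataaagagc
Gbp3, chr3:142559974-142560039, plus strand: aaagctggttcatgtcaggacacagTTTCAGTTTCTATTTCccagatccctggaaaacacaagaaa
Gbp5, chr3:142496684-142496915, plus strand: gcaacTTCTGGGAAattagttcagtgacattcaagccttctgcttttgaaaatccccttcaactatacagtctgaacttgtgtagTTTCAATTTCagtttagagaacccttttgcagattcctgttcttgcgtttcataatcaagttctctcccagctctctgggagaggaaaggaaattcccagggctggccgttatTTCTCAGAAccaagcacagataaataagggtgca
Gbp7, chr3:142530205-142530317, plus strand: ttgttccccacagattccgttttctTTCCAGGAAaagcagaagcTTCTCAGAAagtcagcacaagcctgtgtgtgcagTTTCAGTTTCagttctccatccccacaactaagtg
Igtp, chr11:58199486-58199555, plus strand: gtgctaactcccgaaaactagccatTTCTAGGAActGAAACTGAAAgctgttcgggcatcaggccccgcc
Irgm1, chr11:48871421-48871475, minus strand: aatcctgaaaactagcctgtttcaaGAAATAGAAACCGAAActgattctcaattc

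The interferon-stimulated core lay between 59 and 50 bases before the start of Gbp2 and between 34 and 25 bases before that of Igtp. In Gbp3 and Irgm1 it occurred as 2 overlapping matches, at 45 to 30 and 30 to 15 bases before the start. In Gbp5 it lay farthest away, at 165 to 156 bases. Gbp3 had a second annotated window, which held no match. In the Igtp promoter both elements stood side by side, separated by 2 bases. A match is a description of the letters and no evidence that a factor was bound in these cells.

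The genes form clusters. In the RefSeq order of coding genes Gbp5, Gbp7, Gbp3, Gbp2b and Gbp2 follow each other on chromosome 3, and Gbp8, Gbp9, Gbp4, Gbp10 and Gbp6 follow each other on chromosome 5. Igtp lies between Gm12250 and Irgm2 on chromosome 11, and Irgm1 lies elsewhere on that chromosome, beside Gm5431. The chromosome 5 genes are close copies. Over 2603 aligned bases the longest transcript of Gbp6 was 97.8% identical to that of Gbp10, and Gbp4 and Gbp9 were 84.1% identical over 4476 bases. The sources used here do not say how reads were divided between such copies, so the separate value of Gbp6 is uncertain.

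With FPKM as deposited, 9 of the 10 GTPases were higher in MWA+2DG than in MWA+PBS and none was lower, at an adjusted p under 0.05 (limma on log2(FPKM + 1), Benjamini-Hochberg over all genes tested). Of all genes tested, 22.3% were called higher and 17.1% lower. The rule in the study's methods, which takes P under 0.05 and an absolute log fold change above 0.25 (base not stated, taken here as log2), gave the same counts of 9 and 0 among the GTPases, against 21.6% higher and 16.6% lower over all genes. The median log2 fold change of the 10 was 0.53, beside 0.05 over all genes tested. Their summed FPKM was 324, 337 and 318 in the MWA+PBS samples and 474, 461 and 484 in the MWA+2DG samples.

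These calls depend on what FPKM is relative to. The summed FPKM of 15 T lineage genes (Cd3e, Cd8a, Lck, Trac and others) was 1714 to 1801 in the MWA+PBS samples and 2388 to 2548 in the MWA+2DG samples, and 14 of the 15 were called higher, with a median log2 fold change of 0.44. When each sample was shifted by the mean log2 value of these T lineage genes, which moved the median of all genes from 0.05 to -0.41, only 3 GTPases stayed higher (Gbp4, Gbp6 and Gbp9) and 2 became lower (Gbp3 and Gbp8). On that scale 3.48% of all genes were higher and 71.6% were lower. In bulk samples fewer cells of a type and less RNA per cell cannot be told apart, and each GTPase is given on both scales below.

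**Figure D1:**
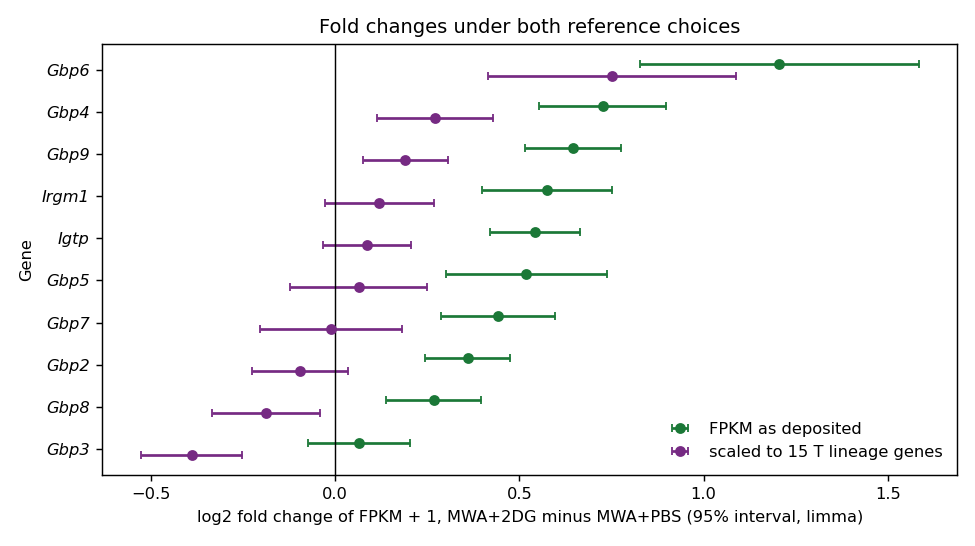
Log2 fold change of each GTPase, MWA+2DG minus MWA+PBS, on the log2(FPKM + 1) scale with 95% confidence intervals, for FPKM as deposited and after scaling to the T lineage genes. As deposited, the interval of Gbp3 crosses 0 and those of the other 9 lie to its right. After scaling, the intervals of Gbp4, Gbp6 and Gbp9 lie to the right of 0, those of Gbp3 and Gbp8 to the left, and the others cross it.

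Igtp, the IRGM regulator that resides mainly at the endoplasmic reticulum and lipid droplets, had the highest level of the 10 in both groups. Its FPKM was 76.5, 77.3 and 76.6 in MWA+PBS and 113, 107 and 117 in MWA+2DG. All MWA+2DG samples were above all MWA+PBS samples, which differed from each other by less than 1 FPKM. The log2 fold change was 0.54 ± 0.05 (SE, n = 3 per group), with a limma adjusted p of 0.000202, and after T lineage scaling it was 0.09 with an adjusted p of 0.154.

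Irgm1, the IRGM regulator found on the Golgi, mitochondria and lysosomes and known for a part in the survival of proliferating T cells, was less abundant per length than Igtp. Its FPKM was 15.07, 15.72 and 13.27 in MWA+PBS and 21.99, 21.29 and 23.69 in MWA+2DG, with no overlap. The log2 fold change was 0.57 ± 0.08 (SE, n = 3 per group; limma adjusted p = 0.000908), and 0.12 after T lineage scaling (adjusted p = 0.121). The ratio of Igtp to Irgm1 was 5.25 ± 0.45 (SD, n = 3) in the MWA+PBS samples and 5.04 ± 0.10 in the MWA+2DG samples, which overlapped (exact permutation p = 0.7, two-sided). That ratio needs no scaling between samples.

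Gbp2, a prenylated GBP recruited to parasite vacuoles, had an FPKM of 48.1, 50.7 and 48.3 in MWA+PBS and of 61.7, 62.8 and 65.0 in MWA+2DG. The groups were apart, by 0.36 ± 0.05 on the log2 scale (limma adjusted p = 0.00117). The sign turned after T lineage scaling, to a log2 fold change of -0.095 that did not pass the test (adjusted p = 0.158).

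Gbp5, the other prenylated member among the 10 and a promoter of NLRP3 inflammasome assembly, was the least abundant gene in MWA+2DG. Its FPKM was 6.50, 7.65 and 6.07 in MWA+PBS and 10.7, 9.15 and 10.4 in MWA+2DG. These ranges did not overlap, and the log2 fold change was 0.52 ± 0.09 (limma adjusted p = 0.00406). It was 0.06 after T lineage scaling (adjusted p = 0.484).

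Gbp7, linked in macrophages to assembly of the phagocyte oxidase, lies between Gbp5 and Gbp3 on chromosome 3. Its FPKM was 30.4, 34.1 and 33.4 in MWA+PBS and 42.1, 47.1 and 45.1 in MWA+2DG. The groups did not overlap, and the log2 fold change was 0.44 ± 0.07 (limma adjusted p = 0.00168). It was -0.012 after T lineage scaling (adjusted p = 0.904).

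Gbp3 was the one member that passed neither rule, although its neighbours Gbp7 and Gbp2b passed and its promoter held 2 interferon-stimulated core matches. Its FPKM was 12.82, 11.98 and 12.33 in MWA+PBS and 13.26, 12.25 and 13.49 in MWA+2DG. The lowest MWA+2DG sample lay within the MWA+PBS range. The log2 fold change was 0.07 with a 95% confidence interval from -0.07 to 0.20 (limma adjusted p = 0.421). Scaled to the T lineage genes it was lower, by a log2 fold change of -0.39 (adjusted p = 0.000614).

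Gbp8, Gbp9 and Gbp4 are neighbours in the chromosome 5 cluster. The FPKM of Gbp9 was 52.1, 54.0 and 48.6 in MWA+PBS and 82.9, 79.4 and 81.2 in MWA+2DG. The FPKM of Gbp4 was 40.8, 48.0 and 41.8 in MWA+PBS and 74.5, 68.7 and 74.5 in MWA+2DG. That of Gbp8 was 35.3, 33.1 and 33.9 in MWA+PBS and 42.6, 41.9 and 39.2 in MWA+2DG. None of the 3 genes had overlapping groups. The log2 fold change was 0.65 ± 0.06 for Gbp9 (limma adjusted p = 0.000122), 0.73 ± 0.07 for Gbp4 (adjusted p = 0.000257) and 0.27 ± 0.05 for Gbp8 (adjusted p = 0.00730). After T lineage scaling Gbp9 and Gbp4 remained higher, at 0.19 (adjusted p = 0.00861) and 0.27 (adjusted p = 0.00729), and Gbp8 was lower, at -0.19 (adjusted p = 0.0258).

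Gbp6 had the largest fold change of the 10 and the widest spread. Its FPKM was 6.56, 4.49 and 3.99 in MWA+PBS and 11.5, 11.9 and 14.8 in MWA+2DG. The lowest MWA+2DG sample was above the highest MWA+PBS sample, although the coefficient of variation in MWA+PBS was 27.2%, against 12.1% or less for the other 9 genes. The log2 fold change was 1.21 ± 0.16 (limma adjusted p = 0.00101), with a 95% confidence interval from 0.83 to 1.58, and 0.75 after T lineage scaling (adjusted p = 0.00206). Summed with its near copy Gbp10, an alternative chosen after seeing the data, it was 1.08 ± 0.12 (adjusted p = 0.000444). The ratio of Gbp6 to Gbp10 was 0.50 ± 0.15 (SD) in MWA+PBS and 0.63 ± 0.07 in MWA+2DG, and the groups overlapped.

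**Figure D2:**
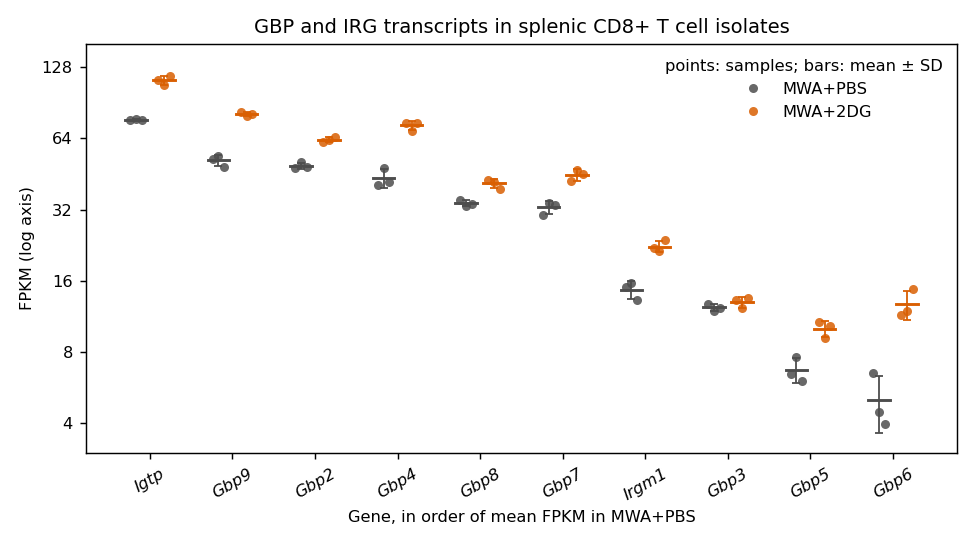
FPKM of the 10 GTPases in each sample on a log axis, 3 MWA+PBS and 3 MWA+2DG samples per gene, with the group mean as a bar. The groups separate for every gene except Gbp3, and Igtp is the highest gene in both groups.

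Every MWA+2DG sample lay above every MWA+PBS sample for 9 of the 10 GTPases, beside 30.2% of all genes tested. In MWA+PBS the level per length ran from Igtp through Gbp9, Gbp2, Gbp4, Gbp8, Gbp7, Irgm1, Gbp3 and Gbp5 to Gbp6. The ranges of neighbours overlapped for Gbp9 and Gbp2, for Gbp8 and Gbp7, and for Gbp5 and Gbp6. In MWA+2DG, Gbp4 stood above Gbp2, Gbp7 stood above Gbp8 with overlapping ranges, and Gbp6 stood above Gbp5 and overlapped Gbp3. Among all genes tested, Igtp was at the 96.7th percentile of mean FPKM in MWA+PBS and the 97.8th in MWA+2DG, while Gbp6 was at the 42.0th and the 71.0th.

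The share of each gene in the summed FPKM of the 10 is independent of any scaling between samples. Gbp4 made up 13.3% ± 0.8 (SD, n = 3) of the sum in MWA+PBS and 15.3% ± 0.4 in MWA+2DG, and Gbp9 made up 15.8% ± 0.5 and 17.2% ± 0.4. The share of Gbp6 was 1.54% ± 0.42 and 2.68% ± 0.33. These were the 3 genes whose share was higher in every MWA+2DG sample than in every MWA+PBS sample. Gbp2 went the other way, from 15.0% ± 0.2 to 13.3% ± 0.3, as did Gbp8, from 10.4% ± 0.6 to 8.72% ± 0.54, and Gbp3, from 3.79% ± 0.21 to 2.75% ± 0.08. For the shares of Igtp, Irgm1, Gbp5 and Gbp7 the groups overlapped. An exact permutation test of 3 against 3 samples cannot go below p = 0.1, two-sided, and each of the 6 non-overlapping shares gave that p.

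**Figure D3:**
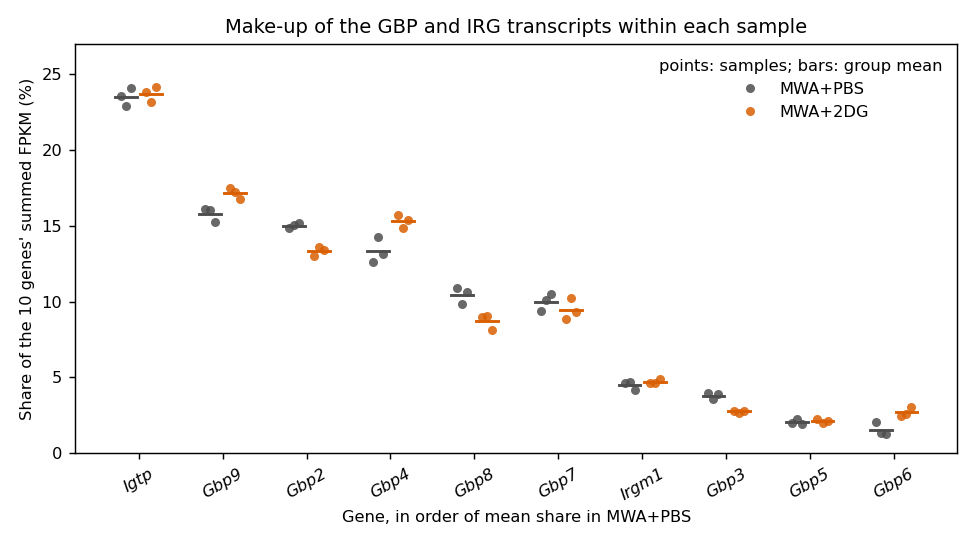
Share of each GTPase in the summed FPKM of the 10, in percent, for each sample. Gbp4, Gbp6 and Gbp9 take a larger share in all MWA+2DG samples, and Gbp2, Gbp3 and Gbp8 a smaller one.

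Proportions between pairs of these genes, which also need no scaling, were compared next. The ratio of Gbp4 to Gbp3 was 3.18, 4.01 and 3.39 in MWA+PBS and 5.61, 5.60 and 5.52 in MWA+2DG. On chromosome 5 the ratio of Gbp9 to Gbp8 was 1.51 ± 0.11 (SD, n = 3) in MWA+PBS and 1.97 ± 0.09 in MWA+2DG. On chromosome 3 the ratio of Gbp7 to Gbp3 was 2.64 ± 0.24 and 3.45 ± 0.35. In all 3 ratios every MWA+2DG sample exceeded every MWA+PBS sample (exact permutation p = 0.1 each, the smallest possible). Each of these ratios set a gene with a larger fold change over one with a smaller. Their separation therefore largely restates the fold changes given above and adds no further support. By contrast the ratio of Irgm1 to the remaining IRGM gene, Irgm2, was 0.83 ± 0.03 and 0.82 ± 0.02, with overlapping groups (exact permutation p = 0.7).

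Of 18 further GTPases of these families, 15 passed the filter on low values. As deposited, 13 of them were higher and 0 were lower by limma's adjusted p, beside 22.3% and 17.1% of all genes tested. Their median log2 fold change was 0.47, beside 0.05 over all genes. At an unadjusted P under 0.05 with a fold beyond 0.25, 1 was lower, Irgq. Iigp1, an effector IRG that coats parasite vacuoles, was the largest, from 5.15 ± 0.32 to 13.6 ± 0.3 FPKM (SD, n = 3) and a log2 fold change of 1.25 (adjusted p = 7.51e-06). The other effector IRGs followed with smaller log2 fold changes, namely Tgtp1 (0.65), Tgtp2 (0.63), Gm12250 (0.44) and Ifi47 (0.40). The regulator Irgm2 stood at 0.60, and the GBPs Gbp10, Gbp11 and Gbp2b at 0.94, 0.47 and 0.29. Among the very large inducible GTPases, Gvin1 stood at 0.53 and its near copy Gm4070 at 0.54. The tandem IRG genes 9930111J21Rik1 and 9930111J21Rik2 stood at 0.26 and 0.38, and the call of 9930111J21Rik1 was lost without MWA+PBS sample 1, MWA+2DG sample 4 or MWA+2DG sample 5 and with median ratio scaling. Gm5431 (0.12, adjusted p = 0.225) and Irgq (-0.31, adjusted p = 0.0613), an IRG relative that interferon is not known to induce, did not pass. Irgq was lower without MWA+PBS sample 2. After T lineage scaling 5 of the 15 were higher, namely Iigp1, Gbp10, Tgtp1, Tgtp2 and Irgm2, and 3 were lower, namely Gbp2b, Gm5431 and Irgq, beside 3.48% and 71.6% of all genes tested. Longest transcripts were 99.8% identical between Tgtp1 and Tgtp2, 99.97% between Gvin1 and Gm4070 and 98.98% between the tandem IRG genes, so their separate values are uncertain.

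The genes of the pathway that induces these GTPases were counted against all genes tested, of which 22.3% were higher and 17.1% lower. Of 20 genes of interferon signalling, 8 were higher and 4 lower as deposited (Ifngr1, Ifngr2, Irf8 and the inhibitor Socs3, the last named after its value was seen), with a median log2 fold change of 0.13. Without MWA+PBS sample 1, MWA+2DG sample 4 or MWA+2DG sample 6 the higher count was 5. Ifng, the gene of the ligand, was at 1.96, 2.72 and 1.92 FPKM in MWA+PBS and 2.68, 1.43 and 2.31 in MWA+2DG. The groups overlapped (log2 fold change -0.04, 95% confidence interval -0.44 to 0.36, limma adjusted p = 0.875), and on the T lineage scale Ifng was lower, at -0.49 (adjusted p = 0.0187). At such low FPKM that shift lowers Ifng more than dividing its FPKM would, so the size of this change is uncertain. Of the receptor chains for interferon gamma, Ifngr2 fell from 6.72 ± 0.21 to 4.42 ± 0.48 FPKM (SD, n = 3; adjusted p = 0.00216). Ifngr1 was lower by a log2 fold change of -0.21 (adjusted p = 0.0268), a call lost without any of 4 of the 6 samples (MWA+PBS samples 1 and 3, MWA+2DG samples 4 and 5). Of the type I receptor chains, Ifnar1 was higher, at 0.50 (adjusted p = 0.000254), and Ifnar2 was not called, at -0.08 (adjusted p = 0.254). After T lineage scaling Ifnar1 was at 0.05 (adjusted p = 0.545).

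On the T lineage scale 15 of the 20 signalling genes were lower and 1 was higher, beside 71.6% and 3.48% of all genes tested. Those lower included both receptor chains for interferon gamma, Ifnar2, Stat2, Jak2, Tyk2 and Irf8, while Irf9 (-0.15, adjusted p = 0.0566) and Socs1 (-0.061, adjusted p = 0.692) were not called. Irf9 and Irf1, partners in the induction of these GTPases, were higher by 0.30 each as deposited (adjusted p = 0.00789 and 0.0151). The Irf1 call was lost without MWA+PBS sample 1, MWA+2DG sample 4 or MWA+2DG sample 6, and after scaling Irf1 was lower, at -0.16 (adjusted p = 0.0458). Irf8, which myeloid and B cells express strongly, fell from 12.1 ± 0.6 to 5.09 ± 0.12 FPKM. Stat2 (0.14, adjusted p = 0.0608), Jak2 (0.12, adjusted p = 0.259) and Tyk2 (0.19, adjusted p = 0.0677) did not pass, although Stat2 and Tyk2 did with arrayWeights. Jak1 stood at 0.22 (adjusted p = 0.0113, lost without MWA+PBS sample 1 and with quantile normalization), and turned to -0.23 on the T lineage scale, where it was called lower (adjusted p = 0.00385). The feedback inhibitor Socs1 stood at 0.39 (adjusted p = 0.0427, lost without any of 4 samples: MWA+PBS sample 3 and all MWA+2DG samples). The Socs1 call was also lost with no filter on low values, with quantile normalization and with median ratio scaling.

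Genes of the machinery with which GBPs and IRGs act were counted against the same shares of all genes tested, 22.3% higher and 17.1% lower. Of 19 genes, most of them for autophagy conjugation and for the prenylation that anchors GBPs, with the cargo receptor Sqstm1, the ubiquitin enzymes Traf6 and Ube2n and the Rab regulator Rabgap1l, 2 were higher (Rabgap1l and Fntb) and 3 lower (Gabarapl1, Map1lc3b and Sqstm1) as deposited, with a median log2 fold change of -0.01. The call of Fntb was lost without MWA+PBS sample 1, MWA+2DG sample 5 or MWA+2DG sample 6, and that of Sqstm1 without any sample other than MWA+PBS sample 2. Gabarapl1, an ATG8 protein, fell from 8.85 ± 0.65 to 2.24 ± 0.51 FPKM (SD, n = 3; log2 fold change -1.61). Map1lc3b, another ATG8 gene, was lower at -0.41, and Rabgap1l was higher at 0.33, a call lost without MWA+PBS sample 1. Of 12 tested genes for inflammasomes and cell death, 4 were higher (Zbp1, Aim2, Gsdmd and Casp8) and 4 lower (Il18, Mlkl, Il1b and Ripk3), with a median of 0.09. The call of Ripk3 was lost without MWA+PBS sample 1, MWA+2DG sample 4 or MWA+2DG sample 5. In these lists the called genes beyond the 3 with the largest change were named after their values were seen. Zbp1, an interferon-induced nucleic acid sensor, was higher (0.72), and Il18 (-1.85) and Mlkl (-0.86) were lower. On the T lineage scale 17 of the 19 genes of the first list were lower, and of the 12 in the second 1 was higher, Zbp1, and 8 were lower, beside 3.48% higher and 71.6% lower of all genes tested.

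Other interferon-induced genes were counted on the same scale, on which 22.3% of all genes tested were higher and 17.1% lower. Of 26 tested antiviral effectors, 19 were higher, 2 were lower (Ifitm3 and Zc3hav1) and 5 were not called, with a median log2 fold change of 0.49. The Zc3hav1 call was lost without any sample other than MWA+PBS sample 2. Ifit3 stood at 1.22, its copy Ifit3b at 1.13 and Mx1 at 0.97. Of 20 genes of MHC class I presentation, 18 were higher and 1 was lower (Calr), with a median of 0.40. With 1 sample left out, 16 to 19 antiviral effectors and 15 to 18 class I genes were higher. H2-Q7, a non-classical class I gene, was at 0.75, H2-T23 at 0.69 and H2-T22 at 0.62, in a family of near copies whose separate values are uncertain. On the T lineage scale, with 3.48% of all genes higher and 71.6% lower, 9 of the 26 antiviral effectors were higher and 9 lower, and 4 of the 20 class I genes were higher (H2-Q7, H2-T22, H2-T23 and Tap1) and 7 lower. Ifitm3, Zc3hav1, Calr and Tap1 were named after their values were seen. Ifit3, Ifit3b and Mx1 were among the effectors that stayed higher.

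**Figure D4:**
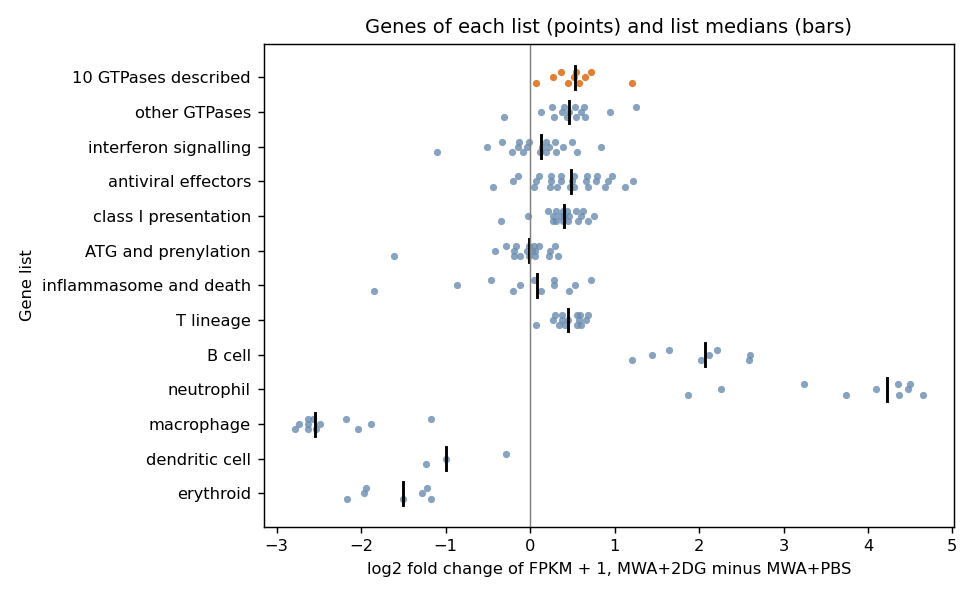
Log2 fold change of each tested gene, MWA+2DG minus MWA+PBS, as deposited, by gene list, with the list median as a black bar. The medians of the 10 GTPases, their relatives and the antiviral effectors are 0.53, 0.47 and 0.49, those of the neutrophil and B cell markers 4.23 and 2.07, and that of the macrophage markers -2.55.

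The labelled cell type was present in all samples. Cd8a was at 232 ± 7 FPKM (SD, n = 3) in MWA+PBS and 366 ± 9 in MWA+2DG, while Cd4 was below 3 FPKM in every sample. Markers of other spleen cells, which also express GBPs and IRGs, were present and moved between the groups. All 12 macrophage markers were lower in MWA+2DG, with sums of 628 to 682 FPKM against 95.1 to 103, and Csf1r was at 67.9 ± 5.9 and 10.6 ± 0.1 FPKM. All 7 erythroid markers were lower, from sums of 215 to 249 down to 47.5 to 64.1. Of 8 dendritic cell markers the 3 tested were lower, and all 8 together summed to 18.2 to 19.8 FPKM in MWA+PBS samples against 11.03 to 11.68. All 10 neutrophil markers were higher, from sums of 56.0 to 81.8 up to 1539 to 1713. All 8 B cell markers were higher, from sums of 9.47 to 10.5 up to 52.1 to 56.9. Of 6 NK cell markers, 2 were tested, of which Ncr1 was lower and Eomes, also a CD8+ T cell gene, was higher. Of 4 CD4 T cell markers, 3 were tested, and Cd4 and Zbtb7b were lower. With no filter on low values 5 of the 6 NK cell markers entered the fit, and the other was at 0 in all samples or not listed. No tested marker was at 0 in all samples of a group. The part of these other cells in the levels of the GTPases was not tested. The labels name no batch, so a batch running along with the groups and 2DG itself cannot be told apart.

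Between 22414 and 23340 genes were above 0 per sample, and the FPKM values of a sample summed to between 291803 and 313257. FPKM holds no read counts, so how deeply each sample was sequenced is unknown, and counting error cannot be given. Correlations of log2(FPKM + 1) between samples of a group were 0.984 to 0.989, across genes, which are not independent replicates, and no sample stood apart from its group.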

How the data were processed

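RNA of splenic CD8+ T cells was measured in 6 samples, grouped by their GEO labels into MWA+PBS (samples 1 to 3) and MWA+2DG (samples 4 to 6). The values the authors deposited are FPKM per gene. The submitters' processing notes name cutadapt 1.9, HISAT2 2.0.4, UMI-tools, StringTie 1.3.4d and build mm9. The study's methods instead name fastp and ballgown beside HISAT2 and StringTie, and nearly all gene IDs matched GENCODE M21, an annotation of a later build, so the build and annotation behind the values are uncertain. Libraries were poly(A)-selected and strand-marked, and the sources do not say whether strand entered the quantification. FPKM is relative to each sample's total, so a transcript that takes more lowers all others. A scan for the step of 1 read found none, so counts and depth are unknown.

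Symbols came from GENCODE M21 for 28689 of 28773 gene IDs. Values were tested as log2(FPKM + 1) for 12444 genes with a mean of at least 1 FPKM, which understates the change of low genes. limma 3.58.1 in R 4.3.3 was used (lmFit, eBayes with a trend, two-sided, no covariates), with Benjamini-Hochberg adjustment over all genes tested. On simulated data with 200 changed genes it recovered 53% at a log2 change of 0.5 and 86% at 1, and called 0.098% of unchanged genes. The simulation changed far fewer genes than were called in the data and held no shift in cell make-up. Its rates may therefore not hold for these samples. Shares and ratios had exact permutation tests. Transcripts were aligned with BLAST 2.17.0, and promoter sequences are RefSeq's.

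The GTPases and the gene lists were chosen with earlier results of these data known, and lists are described by counts and medians only. Named were all 10 GTPases, their tested relatives, a set of signalling genes, up to the 3 called genes of each other list with the largest change, 5 genes of most similar profile, and identity markers. Other names are said to be chosen after their values were seen. Alternatives were a pseudocount of 0.1, no filter or a mean of at least 5 FPKM, quantile, median ratio and T lineage scaling, scaling that ignored ribosomal protein, haemoglobin, immunoglobulin and mitochondrial genes, eBayes without a trend, arrayWeights and leaving out each sample. Protein sequences were not used here. A gene of the signalling list is not reported here.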

Additional observations from a re-analysis of the deposited data

How the results depend on the processing

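The GTPases kept their direction and their side of the threshold in 144 of 151 alternative fold changes, and all 7 exceptions came from scaling to the T lineage genes. The changed filters and eBayes without a trend cannot alter a fold change, so only the p-value could move there. Under that scaling the log2 fold change turned to -0.095 for Gbp2, -0.39 for Gbp3, -0.012 for Gbp7 and -0.19 for Gbp8, and no longer passed for Gbp5 (0.06), Igtp (0.09) and Irgm1 (0.12). The GTPases then counted 3 higher and 2 lower by adjusted p, and 2 and 1 by P and fold. The same scaling gave 5 higher and 3 lower relatives, 1 and 15 signalling genes, 0 and 17 autophagy and prenylation genes, 1 and 8 inflammasome and death genes, 9 and 9 antiviral effectors and 4 and 7 class I genes. It lowers every gene by the same amount, 0.45 on the log2(FPKM + 1) scale, which at low FPKM exceeds what dividing FPKM would give. Elsewhere, 1 relative was lower with median ratio scaling and with arrayWeights, 5 autophagy and prenylation genes were lower with each of these, and 4 were higher with arrayWeights. With arrayWeights 10 signalling genes were higher and 5 lower. eBayes without a trend left 1 antiviral effector lower, and the cause of these other changes was not tested. A mean of at least 5 FPKM left 2 inflammasome and death genes lower because it tests only 6 of the 12, without Mlkl and Il1b. Leaving out 1 sample gave 5 to 8 higher signalling genes, 0 to 3 higher autophagy and prenylation genes (0 without MWA+PBS sample 1, 1 without MWA+2DG sample 6), 0 to 1 lower relatives (1 without MWA+PBS sample 2) and 1 to 2 lower antiviral effectors. It also gave 12 to 13 higher relatives, 16 to 19 higher antiviral effectors and 15 to 18 higher class I genes. The 9 GTPase calls by adjusted p held in each of these fits, with Gbp8 the closest to the threshold (highest adjusted p 0.0332). By P and fold the count was 8 without MWA+PBS sample 2 or MWA+2DG sample 4, with median ratio scaling and with arrayWeights, where the log2 fold change of Gbp8 was 0.217 to 0.246. Gbp6 summed with Gbp10, chosen after seeing the data, stayed higher. No paired analysis was possible because the groups share no replicate numbers. The unknown depth limits the low genes most, Gbp5 and Gbp6 among the GTPases.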

Other observations

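The 5 genes outside all lists whose profile over the 6 samples was most like the mean profile of the 10 GTPases were Mplkip, Pigo, Sp100, Dmac2 and Tbc1d10c. Likeness was the root mean square difference of centred log2(FPKM + 1) values, which ran from 0.0277 to 0.0319 over these genes. Sp100, a nuclear body protein that interferon induces, was at 75.6, 78.6 and 74.0 FPKM in MWA+PBS and 114, 112 and 116 in MWA+2DG, close to the levels of Igtp. Its log2 fold change was 0.58. Pigo, an enzyme of GPI anchor synthesis, was at 8.75, 8.45 and 8.07 FPKM and at 12.9, 11.7 and 12.9, with a log2 fold change of 0.52. Over 6 samples in 2 groups such likeness is mostly set by the difference between the groups, so it is a description and no measure of shared control.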
